A study of Mus musculus with 3 samples.

Results

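The cytosolic ribosomal protein genes were examined in adult cardiomyocytes (ACMs) treated in culture with a gp130 cytokine. Members were the protein-coding genes whose symbol is Rpl or Rps followed by a number, with or without a final a, l or x, together with Rplp0, Rplp1, Rplp2 and Rpsa. The rule found 80 genes of the 56748 in the count table, and it used no measured value. ACMs came from hearts of wild-type (WT) mice, 8 to 10 weeks old, and were kept in serum-free medium with insulin-transferrin-selenium, a contraction inhibitor (BDM) and 0.1% BSA. For 16 h the cultures received this medium as vehicle, 10 ng/mL human IL-6 or 10 ng/mL mouse oncostatin M (OSM). The study's stated aim was to find genes that OSM upregulates through its receptor and JAK1. Samples were combined at the RNA stage, leaving 1 library for each of the 3 conditions, so every difference below is between libraries and has no replicate check. The libraries held 24939980 assigned counts with vehicle, 26362446 with IL-6 and 30773001 with OSM. Mitochondrially encoded genes took 17.4%, 16.1% and 13.6% of them, respectively.

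Cytosolic ribosomes translate the mRNAs of the nuclear genome. A large subunit joins amino acids and a small subunit reads the mRNA, and most of their proteins are each encoded by a single active gene in mammals, with many silent processed copies spread through the genome. Many ribosomal protein mRNAs begin with a C followed by a run of pyrimidines, the 5′ terminal oligopyrimidine (TOP) tract, through which mTORC1 and the RNA-binding protein Larp1 set their translation. In the heart, ribosome number rises with cardiomyocyte growth.

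Most members held a TOP-like run of letters near their start sites. RefSeq promoters (GRCm38.p6) were on hand for 60 of the 80 members. Within 50 bases on either side of the annotated start, 51 of the 60 (85%) held a C followed by at least 7 bases that are each C or T on the transcribed strand. The same was found in 31.8% of the 10001 other protein-coding genes compared for OSM, and in 32.4% of all 16770 protein-coding promoters. The longest run had a median of 10 bases in members and of 6 bases in the other genes. The following windows are from members that the results below turn on, with the run in capitals.
Rplp2 (chr7:141447641-141447668, + strand): cagcgtCTTCCTTTCgccgccggacgcc
Rps6 (chr4:86857347-86857374, - strand): gtcgggCCTCTTTTTCgtgacgcctccc
Rps10 (chr17:27635226-27635253, - strand): cgcacgCCCCTTCCTTTCCagcctccgc
Rps27 (chr3:90213629-90213656, - strand): ctttcgCTCCTTTCCggcggtgacgacc
Rpl4 (chr9:64173407-64173434, + strand): gcgtggCCTTCTCCTCTCCCCgtcatgg
Rplp0 (chr5:115559474-115559501, + strand): ctggttctcctataaaaggcacacgcgg
The runs of Rplp2, Rps6, Rps10 and Rps27 began 1 to 4 bases before the RefSeq start, while those of Rpl4, Rpl3l and Rps2 began 26, 31 and 40 bases after it. Rplp0, printed in lower case only, had no run longer than 5 bases in this window, and Rpsa none longer than 7. The Rpsa run began at the first base searched and more pyrimidines preceded it, so it was cut by the edge of the window. Of 9 promoters on hand for elongation factors and other genes listed as TOP mRNAs, 4 (44.4%) held such a run, with a median longest run of 7 bases.
These are matches of letters and not mapped transcription starts.

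Ribosomal protein genes took a larger share of the OSM library. The 80 members together held 515151 counts with vehicle, 558473 with IL-6 and 940915 with OSM. That was 2.07% of assigned counts with vehicle (95% Clopper-Pearson interval 2.06 to 2.07%), 2.12% with IL-6 (2.11 to 2.12%) and 3.06% with OSM (3.05 to 3.06%). The OSM share was 1.48 times and the IL-6 share 1.03 times that of vehicle. Outside mitochondrially encoded genes the shares were 2.50%, 2.53% and 3.54%, and the OSM share was 1.42 times that of vehicle. Large subunit genes held 1.42 counts for each small subunit count with vehicle, 1.42 with IL-6 and 1.38 with OSM, so both subunits gained share with OSM. Intervals cover counting error only. A share also depends on the counts of all other genes in the library, and RNA per cell was not measured.

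**Figure D1:**
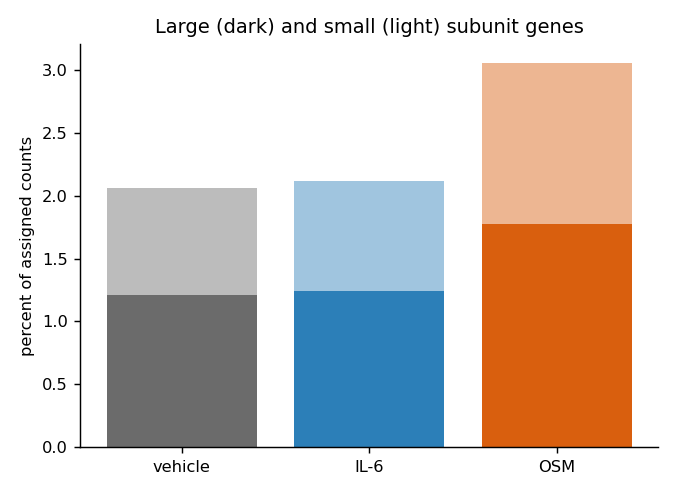
Share of each library's assigned counts (percent, y axis) held by large subunit (dark) and small subunit (light) ribosomal protein genes, with 1 library per bar. The stacked bars reach 2.07% with vehicle, 2.12% with IL-6 and 3.06% with OSM.

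Levels were compared between members per length, as the deposited FPKM. The median of all 80 members stood at 109 FPKM with vehicle, 110.0 with IL-6 and 166 with OSM. The median protein-coding gene with at least 10 counts over the 3 libraries stood at 3.40, 3.37 and 3.14 FPKM. Rplp1, an acidic protein of the stalk that recruits elongation factors, had the highest level, with 867 FPKM with vehicle, 872 with IL-6 and 1461 with OSM. Rplp0, the base of that stalk, followed with 674, 684 and 1044 FPKM. Rps2, a small subunit protein at the mRNA entry, had 536, 521 and 856 FPKM. Rpl4, a large subunit protein that lines the peptide exit tunnel, had 442, 454 and 546 FPKM, and Rpl36 had 407, 409 and 692 FPKM. In each of these 5 genes the vehicle and IL-6 libraries lay close together and the OSM library stood above both. The stalk protein Rplp2 was listed much lower, at 80.0 FPKM with vehicle, 82.7 with IL-6 and 146 with OSM. Rplp2 carries a table length of 2072 bases and Rplp1 one of 499 bases. The table length counts all annotated exons, so FPKM understates a gene whose main transcript is far shorter than its table length.

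**Figure D2:**
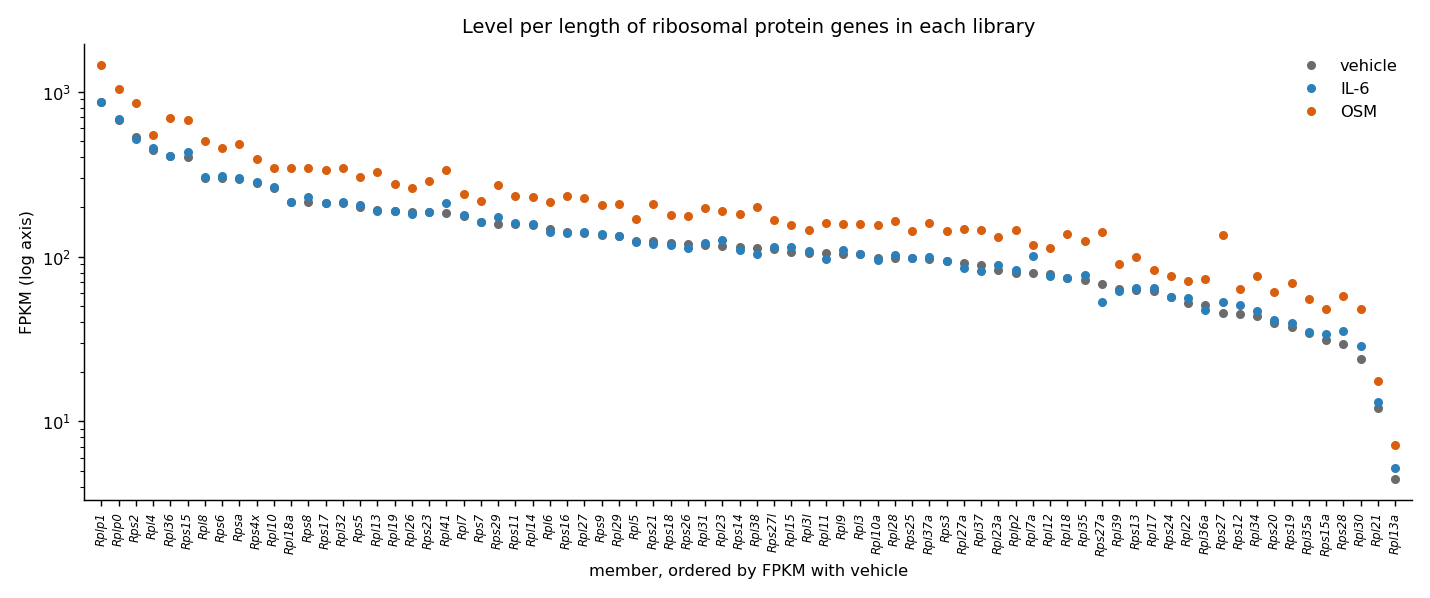
FPKM (log axis) of the 76 members with at least 100 counts in every library, ordered by their level with vehicle, with 1 point per library. Rplp1 stands first at 867 FPKM with vehicle and Rpl13a last at 4.47 FPKM, and the OSM point is the highest of each set.

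At the low end, 4 members had fewer than 100 counts in at least 1 library. Rpl10l, a testis paralog of Rpl10, had 0 counts in each library, which allows up to 3 counts, or 0.120 CPM with vehicle, 0.114 with IL-6 and 0.0975 with OSM. Rpl39l, a paralog of Rpl39 found mainly in testis, had 0, 6 and 8 counts. Rpl24 had 2, 3 and 5 counts and Rps10 had 13, 20 and 72, although both encode proteins found in every ribosome. Rpl13a, also part of every ribosome, had 239 counts with vehicle, 301 with IL-6 and 455 with OSM, far under the median member (5082, 5690 and 9893 counts). These 3 genes were also the only members whose coding sequence is covered over at least 50% by exons of another gene on the same strand in GENCODE M39. The covered share was 85.9% for Rps10 (Gm49804), 83.4% for Rpl24 (Gm28037) and 77.0% for Rpl13a (mainly Gm45713). The rule by which reads on more than 1 gene were counted is not known here, and its part in the low counts was not tested.

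With OSM, every member with enough counts to compare was higher than with vehicle, typically by about 1.56-fold. A log2 fold change here is the log2 ratio of counts scaled by TMM, which assumes that most genes do not differ, with the 95% counting interval in brackets. Of the 80 members, 77 had at least 10 counts over the OSM and vehicle libraries. The interval lay wholly above a ratio of 1 in 77 of the 77 and below it in 0, against 33.4% above and 33.1% below among all 15537 genes compared. Members have many counts and so narrow intervals, which clear 1 more easily than those of sparsely counted genes, here and below. Without regard to intervals, 77 of the 77 were higher, against 50.2% of all genes. The median member was 0.65 higher, with 0.66 over 46 large subunit genes and 0.63 over 31 small subunit genes. The median of all genes was 0.00. The call rule asked for an interval entirely outside a 2-fold difference. By this rule 2 members rose, Rps27 and Rps10, against 3.74% of all genes called higher, and 0 fell, against 5.43%.

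Rps27, a small subunit protein with a zinc finger, had 1194 counts with vehicle, 1492 with IL-6 and 4199 with OSM. The OSM library stood well above the others, with a log2 fold change of 1.57 [1.48, 1.67] against vehicle. Rps10, a small subunit protein near the mRNA entry, was called from very few counts, at 2.23 [1.36, 3.20]. Neither gene was called when counts at its near-identical copies were added, as given with the copies.

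Next in order came members near 2-fold that were not called. Rps27a, which is made as a fusion of ubiquitin and a small subunit protein, had 3426 counts with vehicle, 2843 with IL-6 and 8259 with OSM. Its fold change with OSM was 1.03 [0.97, 1.09]. Rpl30, which also binds its own RNA in yeast, had 1829, 2360 and 4326 counts, at 1.00 [0.92, 1.08]. With counts at its processed copies added, Rpl30 was at 0.81 [0.73, 0.88]. In both genes the OSM library was the highest, and IL-6 stood below vehicle for Rps27a and above it for Rpl30. Rps28 had 1289, 1651 and 2983 counts, at 0.97 [0.87, 1.06]. Rpl18 had 7552, 8136 and 16528 counts, at 0.89 [0.85, 0.93].

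Of the 5 smallest differences with OSM among well-counted members, 3 were in large subunit genes. Rpl4 had 22449 counts with vehicle, 24688 with IL-6 and 32706 with OSM, which is 0.30 [0.28, 0.33] higher with OSM. Rpl10, which joins late in large subunit assembly, had 13503, 14705 and 21173 counts, at 0.41 [0.38, 0.44]. Rpl17 had 2084, 2326 and 3292 counts, at 0.42 [0.34, 0.50], or 0.58 [0.54, 0.63] with counts at its processed copies added. Even these genes were highest in the OSM library. The small subunit genes Rps24 and Rps7 were 0.42 [0.38, 0.46] and 0.42 [0.38, 0.46] higher. Between well-counted members the spread was wider than counting error, since the intervals of Rpl4 and Rpl18 do not meet.

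**Figure D3:**
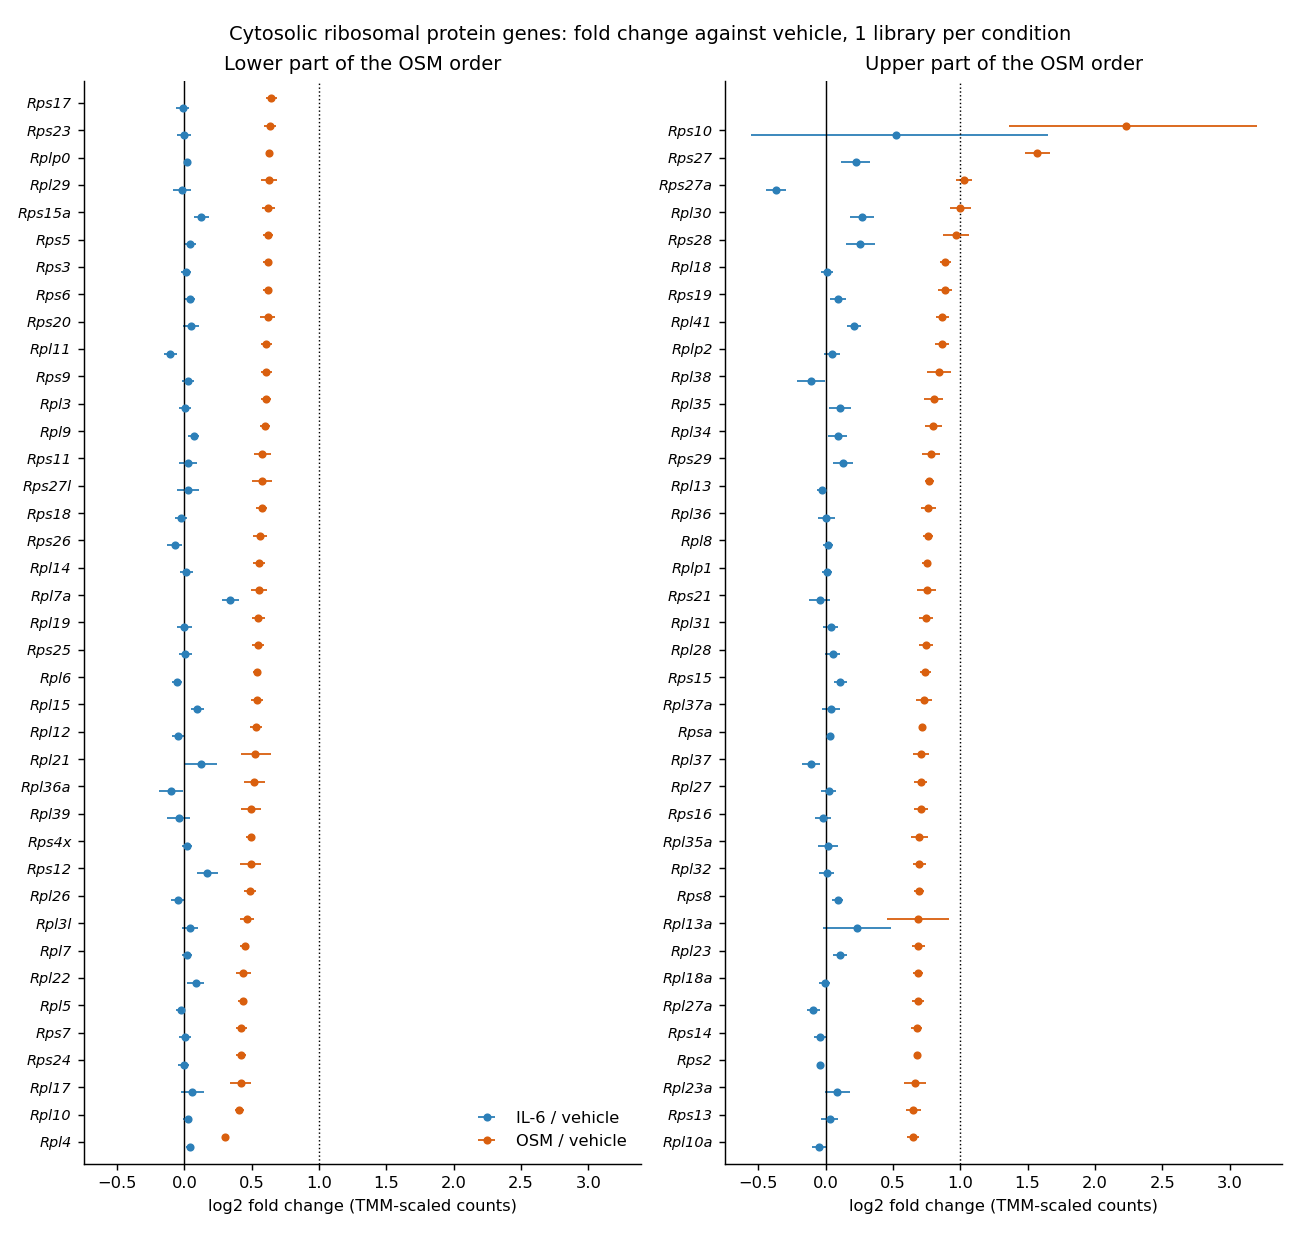
Log2 fold change against vehicle (x axis) of the 77 compared members, for OSM (orange) and IL-6 (blue), with 95% counting intervals as bars; both use the same vehicle library. The dotted line marks 2-fold; OSM points lie from 0.30 for Rpl4 to 2.23 for Rps10, and IL-6 points lie around 0.

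Members with known roles beyond the ribosome lay within the same range. Rps6, the small subunit protein phosphorylated by S6 kinase downstream of mTORC1, had 11978 counts with vehicle, 13210 with IL-6 and 21745 with OSM, at 0.62 [0.59, 0.65] for OSM. Rpl5 and Rpl11, which bind the p53 regulator Mdm2 when ribosome assembly fails, were 0.43 [0.40, 0.47] and 0.61 [0.57, 0.65] higher. Rps19 and Rps14, whose loss impairs red cell formation in people, were 0.89 [0.84, 0.94] and 0.68 [0.63, 0.72] higher. Rps19 went from 4405 counts with vehicle to 9637 with OSM. Rpl10a, Rpl38 and Rps25, each linked to the translation of selected mRNAs, were 0.65 [0.60, 0.69], 0.84 [0.75, 0.93] and 0.55 [0.50, 0.59] higher. Among the stalk genes, Rplp0 was 0.63 [0.61, 0.65], Rplp1 0.75 [0.72, 0.78] and Rplp2 0.87 [0.81, 0.92] higher. Rpsa, which also serves as a laminin receptor, had 23594, 25794 and 45804 counts, at 0.72 [0.69, 0.74].
The median OSM difference was 0.62 over 50 compared members with a pyrimidine run and 0.65 over 7 without. The 7 include Rpsa, whose run was cut by the edge of the window.

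Short genes as a whole were higher in the OSM library, so members were set beside other genes of like length. Over 9369 other protein-coding genes averaging 100 or more counts, the OSM difference fell with the table length of the gene (Spearman's rho of -0.52 across genes, a description, since genes share the libraries). Over the 76 such members rho was -0.23, and -0.44 by coding length. Protein-coding genes from 243 to 1483 bases had a median difference of 0.54, and those from 2705 to 3026 bases one of 0.23. The 42 members of 2000 bases or less had a median of 0.69. The 1456 other protein-coding genes in the same length range had a median of 0.45, and 62.2% of them lay wholly above a ratio of 1. Each member was then compared with the 100 other protein-coding genes nearest in length. Members exceeded their neighbors' median by a median of 0.27, or 0.18 over the 42 members of 2000 bases or less. An interval wholly above the neighbors' median was found in 67 of 77 members, against 37.1% of the 9369 other genes when each was set beside its own 100 neighbors. Depth differs here too, since those genes needed only 100 counts on average. Without regard to intervals, 74 of 77 members exceeded their neighbors' median. Rpl4 and Rpl17 lay wholly below it, with differences of -0.09 and -0.11. With counts at its processed copies added, Rpl17 was at 0.58 [0.54, 0.63], above its neighbors' median of 0.53. With neighbors chosen by coding length, a choice made after seeing the data, the median excess was 0.28, with 74 of 77 intervals above and 0 below. No matching share of other genes is given for this choice. The neighbors' own median OSM difference, taken for each member, had a median of 0.39.

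**Figure D4:**
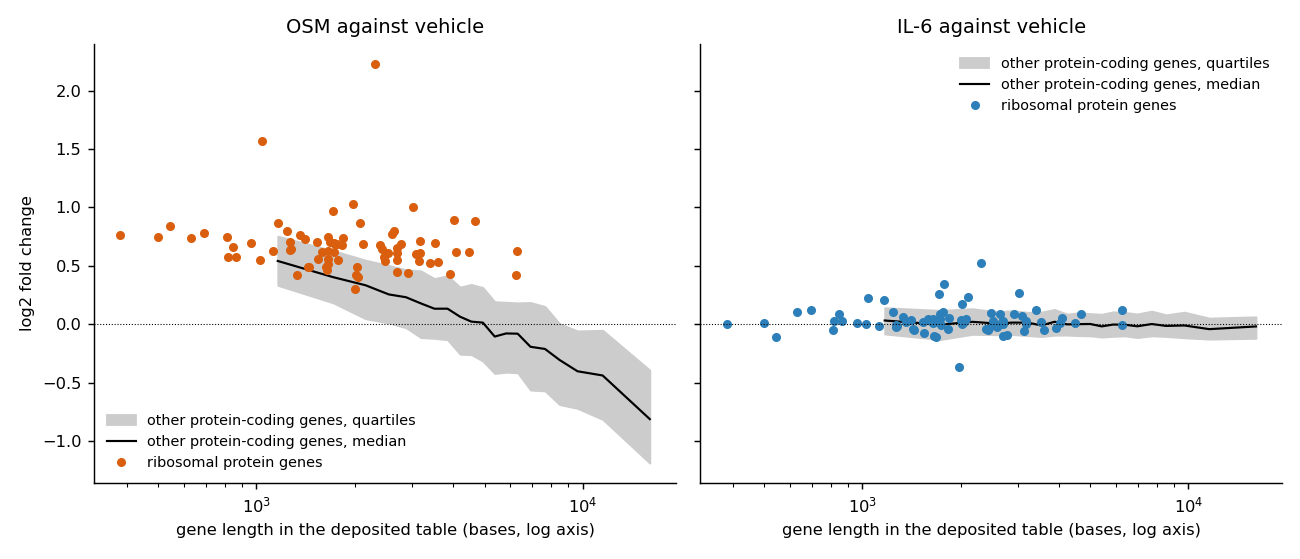
Log2 fold change (y axis) against gene length in the deposited table (bases, log axis) for OSM (left) and IL-6 (right); points are ribosomal protein genes, and the line and band are the median and quartiles of other protein-coding genes in 20 length bins. For OSM the line falls with length from 0.54 in the shortest bin and most points lie above it, while for IL-6 line and points stay near 0.

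Rps27 has a transcribed copy that changes how its call reads. The retrogene Rps27rt is listed as protein-coding but falls outside the naming rule. The Rps27 transcript taken here was one with a coding sequence as long as that of Rps27rt. This sequence (chr3:90120035-90120922, - strand, GRCm39, 4 coding exons) and that of Rps27rt (chr9:114811524-114811775, - strand, 1 coding exon) are the same at each of their 252 bases, with 0 mismatches. The longest coding sequence of Rps27, of 270 bases, matches its best copy, at Rps27rt, at 98.5% identity. The first 30 of the 252 bases are printed to show what a read in this stretch would hold for either gene.
Rps27 and Rps27rt: atgcctctcgcaaaggatctccttcatccc
Rps27rt had 1815 counts with vehicle, 1915 with IL-6 and 1590 with OSM. It was thus lower with OSM, at -0.43 [-0.53, -0.33], where every compared member was higher. The sum of both genes was 3009, 3407 and 5789 counts. On the sum the OSM difference was 0.70 [0.64, 0.77], near the member median, and the call was lost. Reads inside the shared 252 bases cannot be told apart, and how the counts were divided was not tested.

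Processed copies of other members were counted as genes of their own as well. Copies with at least 97% identity over 75 bases or more, elsewhere in the genome, covered at least 50% of the coding sequence in 62 of the 80 members and the whole of it in 38, and 12 had none. The table names 319 pseudogenes of 62 members, of which 133 had counts with vehicle, 140 with IL-6 and 144 with OSM. They held 17062, 18659 and 30408 counts, which is 3.31%, 3.34% and 3.23% of the counts of the members. In 2 members the pseudogenes exceeded the gene. Rps10 had 13, 20 and 72 counts, while its 4 pseudogenes had 899, 1205 and 1954, most of them at Rps10-ps2 (783, 1091 and 1787). With these added, Rps10 was 0.91 [0.80, 1.02] higher with OSM and no longer called. Rpl17, a large subunit protein at the exit tunnel, had 2084, 2326 and 3292 counts against 4303, 5047 and 8015 at its 11 pseudogenes. Added together, Rpl17 was 0.58 higher with OSM in place of 0.42. The pseudogenes of Rpl30 held fewer counts than the gene, with 364, 260 and 210. With these added, Rpl30 was 0.81 higher with OSM in place of 1.00. Neither of the members called higher with OSM was called once counts at near-identical copies were added.

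For human IL-6 the members differed little from vehicle, in both directions. The median log2 fold change against vehicle over 77 members was 0.02, with -0.00 over all 15472 genes compared. The interval lay wholly above a ratio of 1 in 21 members and below it in 12, against 19.6% and 19.1% of all genes. With scaling to total counts these were 33 and 5 members, against 22.5% and 16.4% of all genes. No member was called in either direction (0 and 0), against 1.77% of all genes higher and 1.74% lower. Rps27a, with 3426 counts with vehicle and 2843 with IL-6, had the lowest value, -0.37 [-0.44, -0.30]. Rpl37, at -0.11 [-0.18, -0.05], and Rpl11, at -0.10 [-0.15, -0.06], were among the next lowest. Rpl7a, which had 3597 and 4883 counts, stood highest of those with at least 100 counts, at 0.34 [0.28, 0.40]. Rpl30 was at 0.27 [0.18, 0.36], or 0.16 [0.07, 0.24] with its pseudogenes added, and Rps28 at 0.26 [0.15, 0.36]. These differences exceed counting error and are all under 1.5-fold. Most members, 44 of 77, had an interval that includes a ratio of 1.

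The direct comparison of the cytokine libraries gave a like picture to that with vehicle. Over 78 members the median was 0.62 higher with OSM than with IL-6 (0.00 over all 15544 genes), and 77 of 78 intervals lay wholly above a ratio of 1, against 33.2% of all genes. The exception was Rpl39l, with 6 and 8 counts. By the 2-fold rule 2 members rose, against 4.24% of all genes, and 0 fell, against 5.42%. They were Rps27a, at 1.40 [1.33, 1.46], and Rps27, at 1.35 [1.27, 1.44]. With the counts of Rps27rt added, Rps27 was at 0.62 [0.56, 0.68] and no longer called. Rps10 missed the rule, at 1.71 [0.97, 2.50]. The smallest well-counted difference was in Rpl7a, at 0.21 [0.16, 0.26].

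Paralogs were compared with their partners per length within each library. Rpl3l, the paralog of Rpl3 found in heart and skeletal muscle, had 105 FPKM with vehicle, 108 with IL-6 and 145 with OSM. Rpl3 had 104, 104 and 158 FPKM. Rpl3l thus stood at 101% of Rpl3 with vehicle [97.2, 105], 104% with IL-6 (lower bound 100%, upper bound 107%) and 91.3% with OSM [88.8, 93.9], so the ratio of the muscle form to its partner was lowest with OSM. The level of this ratio rests on table lengths of 1643 bases for Rpl3l and 3175 for Rpl3, whose coding sequences are 1221 and 1209 bases long. By raw counts Rpl3l was 52.2%, 53.6% and 47.3% of Rpl3. Its own fold change with OSM was 0.46 [0.41, 0.52], and that of Rpl3 was 0.61 [0.57, 0.65]. Rps27l, a paralog of Rps27 that p53 induces, stood at 247% of Rps27 with vehicle, 216% with IL-6 and 124% with OSM. Rps27l itself was 0.58 [0.50, 0.65] higher with OSM, and its ratio carries the uncertain split of Rps27. Rps4l, a copy of Rps4x annotated as a transcribed processed pseudogene, stood at 4.95% [4.5, 5.43] of Rps4x with vehicle, 6.47% [5.97, 7.0] with IL-6 and 7.40% [6.97, 7.85] with OSM. Rpl22l1 was at 12.3%, 9.39% and 11.6% of Rpl22, Rpl7l1 at 12%, 11.7% and 12.4% of Rpl7, and Rpl36al at 2.42%, 3.63% and 2.89% of Rpl36a. For Rpl7l1 and for Rpl36al the 3 intervals overlap, and Rpl36al had only 42, 63 and 85 counts.

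**Figure D5:**
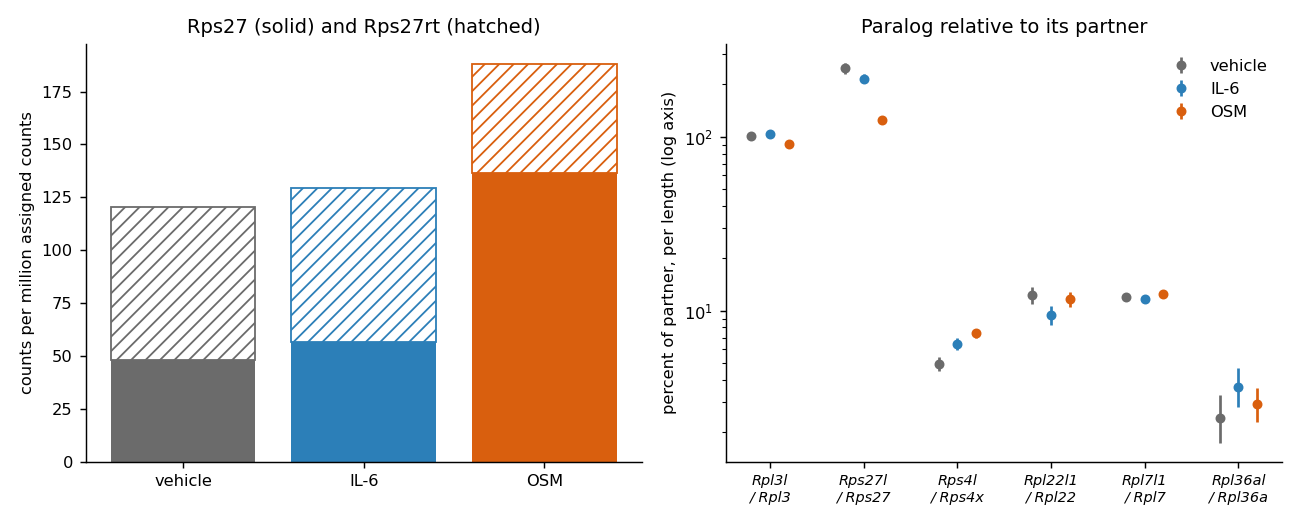
Left, CPM of Rps27 (solid) and Rps27rt (hatched), stacked, in each library; right, paralog level as a percent of its partner, per length (log axis), with 95% counting intervals. Rps27 goes from 1194 counts with vehicle to 4199 with OSM while Rps27rt goes from 1815 to 1590, and Rpl3l stands at 101%, 104% and 91.3% of Rpl3 by table length.

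Other genes of the translation machinery were taken from lists, to be read against the 33.4% of all genes above and 33.1% below a ratio of 1 with OSM, and the 3.74% called higher and 5.43% called lower. Among 8 ribosomal protein genes or copies outside the naming rule, 7 lay wholly above a ratio of 1 with OSM and 1, Rps27rt, below, and 0 were called. Of the 7, Rpl37rt is annotated as a transcribed processed pseudogene and matches the whole coding sequence of Rpl37 at 99.7% identity. Fau, which carries a small subunit protein fused to a ubiquitin-like one, went from 4007 counts with vehicle to 4094 with IL-6 and 8601 with OSM, at 0.86 [0.81, 0.91]. Among 15 elongation factors and other TOP mRNAs, 11 were above and 1 below, with a median of 0.41 and 0 called. Set beside the 100 other protein-coding genes nearest in length to each gene, members of the first list were higher by a median of 0.30 and those of the second by 0.20. The mRNA of the poly(A)-binding protein Pabpc1 was 0.59 [0.54, 0.63] higher, and that of the elongation factor Eef2 was 0.07 [0.06, 0.09] higher.

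Among 33 translation initiation factors, 23 were above and 9 below a ratio of 1 with OSM, at a median of 0.25. Eif6, which keeps the subunits apart and is needed for large subunit assembly, was the 1 gene called, with 1522 counts with vehicle, 1558 with IL-6 and 4289 with OSM, and it rose by 1.25 [1.17, 1.34]. Among 62 ribosome biogenesis factors, 51 were above and 4 below, at a median of 0.35, and 0 were called. Rrp9, a protein of the particle that processes the small subunit rRNA, went from 832 counts with vehicle to 2018 with OSM, at 1.04 [0.92, 1.15]. The median difference from length neighbors was 0.17 for the initiation factors and 0.28 for the biogenesis factors. Of the 15 genes of RNA polymerase I and rDNA transcription in the table, 7 were above and 5 below, at a median of 0.02, with a median difference from length neighbors of 0.09. For mTORC1, S6 kinase and TOP mRNA regulators, 7 of 30 were above and 16 below, at a median of -0.16 and -0.14 from length neighbors, and 0 were called. Mtor itself was at -0.99 [-1.07, -0.90], with a table length of 10109 bases, and the mTOR inhibitor Deptor at -1.14 [-1.36, -0.92]. Larp1 was at -0.37 [-0.42, -0.32]. Other genes of the list lay above a ratio of 1. The translation repressor Eif4ebp1, a target of mTORC1, had 5627 counts with vehicle, 6311 with IL-6 and 11343 with OSM, at 0.77 [0.72, 0.82]. Ddit4, an inhibitor of mTORC1, was at 0.85 [0.70, 1.01], and the growth regulator Myc at 0.55 [0.47, 0.63]. With IL-6 the medians of these lists lay between -0.07 and 0.05, and 0 of their genes were called.

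The cell type label was checked on marker lists. The 14 cardiomyocyte markers summed to 17678 FPKM with vehicle, 18158 with IL-6 and 23100 with OSM, and none was at 0. Of these markers 9 were above and 5 below a ratio of 1 with OSM, and the very long Ttn and Ryr2 fell. The 9 fibroblast markers summed to 0.913, 0.770 and 1.12 FPKM, and the 9 endothelial markers to 8.92, 8.90 and 9.61 FPKM. The 8 smooth muscle and pericyte markers summed to 33.1, 35.6 and 23.3 FPKM. Abcc9, with a table length of 8373 bases, made up 19.9, 22.7 and 8.01 of these, and Acta2 12.2, 12.1 and 14.3. The 11 macrophage and leukocyte markers summed to 13.8, 14.3 and 39.9 FPKM, of which Cd68 made up 12, 13.2 and 37.8. The defining leukocyte markers Ptprc, C1qa, C1qb and Fcgr1 were at 0 in each library. By their summed level, markers of other cells were a small part of each library beside those of cardiomyocytes.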

How the data were processed

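Paired reads were mapped to GRCm39/mm39 and assigned to genes with featureCounts (fastp, HISAT2 2.2.1, featureCounts 2.0.6 and edgeR 4.0.16 in the submitters' processing notes). The paper's methods name earlier releases of featureCounts and edgeR than these notes. The labels describe the second strand step for stranded and unstranded libraries alike and do not say which was made. Strand use in counting and the handling of reads on several genes or places are not given in the sources used here, so values of overlapping genes and near-identical copies are uncertain. The authors deposited raw counts as whole numbers, 1 per gene and library, and their own FPKM values, which divide these counts by gene length and library size. The 3 libraries held from 24939980 to 30773001 counts, and 0 per-sample columns were left unmatched.

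Members and lists were chosen with earlier results of these data known. Counts were scaled with pairwise TMM factors from all genes of the count table (edgeR 4.0.16, R 4.3.3). Genes with at least 10 counts over a pair of libraries were then compared. The fold change is the log2 ratio of scaled counts. Its 95% counting interval is the Clopper-Pearson interval of 1 count as a share of both. Calls needed an interval entirely outside 2-fold. With 1 library per condition no test across replicates was run and no P-value is given. The OSM and IL-6 comparisons share the vehicle library. The calling code was tested on simulated data.

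Genes named were the stalk genes and Rpsa, paralog pairs, members with known roles outside the ribosome, the 5 highest and 5 lowest members by fold change and by FPKM with vehicle, called members, and up to 3 genes per list. Rps27rt, Eef2, Larp1, Eif4ebp1, Ddit4, Myc, Ttn, Ryr2, Cd68 and the leukocyte markers at 0 were named after their values were seen. Coding sequences and copies (BLAST search) came from GRCm39 with GENCODE M39, and start windows from RefSeq. Alternatives were other scalings (DESeq2 1.42.0, total counts), count filters, thinning, FPKM, removal of the length trend, pseudogene counts added, and other neighbors. 1 gene that the naming rule selects, and 1 alternative for the shares of counts, are not reported here.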

Additional observations from a re-analysis of the deposited data

How the results depend on the processing

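No paired analysis was possible because each condition is 1 library and no test across replicates could be run. The higher level of members with OSM held for 77 of 77 members under each scaling tried. It did not hold for every member once the length trend was removed, as given below. Scaling to totals outside mitochondrially encoded genes shifted the median of all genes by -0.13 where OSM was set against vehicle and by -0.12 where it was set against IL-6; the member medians became 0.52 and 0.50. With total counts these medians were 0.58 and 0.54, and for IL-6 against vehicle 33 members lay above and 5 below a ratio of 1, in place of 21 and 12; of all genes 22.5% and 16.4% did, in place of 19.6% and 19.1%. Removing the length trend lowered the medians to 0.30 (OSM against vehicle) and 0.28 (OSM against IL-6), left 1 call in each (Rps10 and Rps27a) and put 2 and 3 members below a ratio of 1. At 1.5-fold, 41 and 38 members were called higher, against 8.73% and 8.78% of all genes. OSM against vehicle kept 1 call with at least 100 counts over the pair and 1 with pseudogene counts added.

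In alternatives chosen after seeing the data, adding Rps27rt to Rps27 left 1 call for OSM against vehicle and 1 against IL-6. Among the 17 members with copies over less than 50% of the coding sequence, a smaller set by construction, OSM against vehicle gave 0 calls, 17 members above a ratio of 1, a median of 0.58 and an excess over length neighbors of 0.15, and IL-6 against vehicle gave 4 above and 3 below. For OSM against IL-6, 18 such members gave 1 call, 17 above and an excess of 0.15.

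Leaving out mitochondrially encoded genes made the shares of counts 2.50%, 2.53% and 3.54% with vehicle, IL-6 and OSM. By raw counts in place of per length, in the same library order, Rpl3l was 52.2%, 53.6% and 47.3% of Rpl3, Rps27l 193%, 169% and 97% of Rps27, Rps4l 4.05%, 5.29% and 6.05% of Rps4x, Rpl22l1 8.37%, 6.41% and 7.92% of Rpl22, and Rpl7l1 15.6%, 15.2% and 16.1% of Rpl7. With 1 library per condition, variation between cultures or preparations could not be measured, and the few or no counts at Rps10, Rpl24, Rpl39l and Rpl10l give wide intervals or none.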
